A study of Mus musculus with 6 samples.

Results

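Migratory dendritic cells were sought among single cells of mouse pancreatic lymph nodes, the nodes that drain the pancreas. A barcode counted as a cell with at least 500 unique molecular identifiers (UMIs, the tags that count captured RNA molecules), at least 300 genes and at most 10% mitochondrial UMIs. Cells became members when they held no UMI of the T cell gene Cd3e or the B cell genes Cd79a and Ms4a1, and at least 3 of Fscn1, Ccl22, Ccl17, Cacnb3, Nudt17, Ccr7, Il4i1 and Tmem123, of which at least 1 was Fscn1, Ccl22 or Cacnb3. This gave 999 members of 56310 cells, 519 with under 2000 UMIs and 480 with 2000 or more, and these depth classes are described apart. The 3 mice called Cre-positive carried a floxed gene and the CD4-Cre transgene, and the 3 called Cre-negative carried the floxed gene without it. The labels give neither strain, sex nor age. CD4-Cre drives Cre recombinase from Cd4 regulatory DNA, which is active in developing T cells. A Cd4 UMI was found in 36 members (3.60%). With each cell at 2000 or more UMIs thinned to 2000, the share with a Cd4 UMI was 2.71% in members, 0.833% in B cells, which should lack it, and 22.2% in T cells. Before thinning these shares were 7.29%, 1.43% and 43.1%, at median depths of 3833, 4445 and 5181 UMIs. Conventional dendritic cells, which are defined further on, had a higher share than members. It was 6.17% thinned and 15.9% before thinning, at a median depth of 5715 UMIs. Of the 75 Cd4 UMIs in members at 2000 or more UMIs, 31 were in 11 cells of a cluster of 22 led by T cell genes. Whether Cre acted in members was not tested. The labels give 3 mice in each group and 3 libraries in each, and each library is taken as 1 mouse. They do not say how the cell suspensions were made.

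The 6 libraries held 8209 to 10936 barcodes and 47149014 to 61321105 UMIs. Between 16 and 39 barcodes were shared by any pair of libraries, and none of the shared barcodes was a member in both. Members had a median of 1558 to 3103 UMIs per mouse. Summed over its members at 2000 or more UMIs, a mouse gave 256857 to 802588 UMIs, and over its members under 2000 UMIs 24137 to 148816 UMIs. Cre-positive mouse 3 stood apart with 61 members, 19 of them under 2000 UMIs, against 146 to 242 members in the other 5 mice.

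Dendritic cells take up antigen in tissue and present its peptides to T cells. On maturing they raise Ccr7, a receptor that guides them along lymph vessels into the node, remodel their actin with fascin, release the chemokines Ccl17 and Ccl22, and shut down new synthesis of class II molecules while keeping those already loaded at the surface. Dendritic cells that live in the node can mature in place and then carry many of the same transcripts, so the markers name a state and cannot give the cell's origin.

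The members were chosen by the measured UMIs of these 11 genes, whose values are given as a description. Levels are CPM, a gene's UMIs summed over a class in 1 mouse and scaled to the same total of UMIs in every sum, unless said otherwise. Levels of cells grouped by marker number or by closeness to a limit, and levels of clusters, are sums pooled over all mice. Runs of 6 values stand for Cre-positive mice 1 to 3 and Cre-negative mice 1 to 3. Fscn1, the gene of fascin, which bundles actin, had 1359.6, 1874, 1487, 1268, 1517 and 1025 CPM in members at 2000 or more UMIs of the 6 mice. It had 19.9 to 49.8 CPM in the 227 conventional dendritic cells of that depth that were no members. Ccl22 had 242 to 552 CPM in members and 0 to 3.83 CPM in conventional dendritic cells. Cacnb3, a calcium channel subunit, had 216 to 379 CPM in members and 0 to 5.18 CPM in conventional dendritic cells. Il4i1, an amino acid oxidase, had 556 to 1226 CPM in members and 6.63 to 73.3 CPM in conventional dendritic cells. Ccr7 had 624 to 1568 CPM in members, 3.83 to 24.0 CPM in conventional dendritic cells and 268 to 335 CPM in all other cells, which are mostly T and B cells that also use this receptor. Ccl17 was the least even of the markers between mice, at 45.7, 123, 58.4, 25.4, 128 and 165 CPM in members at 2000 or more UMIs.

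Of the 999 members, 272 had 3 markers detected, 273 had 4, 204 had 5, 147 had 6, 79 had 7 and 24 had all 8. The 243 cells just outside the rule, with 2 markers, had a median of 1192 UMIs and 9319 CPM of the chemokine gene Ccl5. The 272 members just inside it, with 3 markers, had a median of 1399.5 UMIs and 10829 CPM of Ccl5. Members with 4 or more markers had 15143 CPM of Ccl5. The cells on either side of the marker limit had similar Ccl5 levels and low depth. At the limit of 2000 UMIs, the 53 members closest below it had 22172 CPM of Ccl5 and the 41 closest above it 27197 CPM. A further 580 cells met the marker rule but held a UMI of Cd3e, Cd79a or Ms4a1. These had a median of 6537.5 UMIs and 2594 CPM of Ccl5, and they are not members.

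Genes outside the rule were compared with conventional dendritic cells and with all other cells at 2000 or more UMIs. Conventional dendritic cells were taken as non-members with no UMI of Cd3e, Cd79a, Ms4a1, Siglech and C1qa and at least 3 of Flt3, Zbtb46, Itgax, Xcr1, Clec9a, Naaa, Cd209a, Clec10a, Plbd1 and Ifi205. The rule chose members by this contrast, so the values are a description with no test. A gene counted as higher or lower when it was at least 2-fold so in each of the 6 mice. Of 5343 genes at 20 CPM or more in either class, 281 were higher in members than in conventional dendritic cells (5.26%) and 113 were lower (2.11%). Of 5910 genes against all other cells, 695 were higher (11.8%) and 520 were lower (8.8%). With only the members of clusters 1 to 4 of the clustering given further on, 337 were higher and 422 lower than in conventional dendritic cells, and 623 were higher and 990 lower than in all other cells, so the balance of higher and lower turned round in both. The number of genes measured in that setting is not given.

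Of 31 measured genes of the mature dendritic cell list outside the rule, 21 were higher in members than in conventional dendritic cells and none was lower. Their median log2 difference was 2.60, against -0.05 over all genes measured. Ccl5, a chemokine that draws T cells and other leukocytes, had 9821, 11411, 10408, 15846, 10954 and 11183 CPM in members, against 117, 344, 192, 93.2, 292 and 287 CPM in conventional dendritic cells. The 2 classes did not overlap in Ccl5, and every member value lay far above every value of the conventional cells. Epsti1, an interferon-inducible gene, had 3421, 4553, 4081, 3798, 3586 and 3134 CPM in members, against 246, 172, 225, 228, 213 and 241 CPM in conventional dendritic cells. Cd63, a tetraspanin of late endosomes, had 999.6, 1281, 1129, 909, 932 and 780.4 CPM in members, against 0, 0, 0, 0, 3.43 and 19.2 CPM in conventional dendritic cells. In 4 of the 6 mice no Cd63 UMI was found in conventional dendritic cells. Fabp5, a fatty acid binding protein, had 1029 to 1445 CPM in members and 10.4 to 85.9 CPM in conventional dendritic cells. Anxa3, an annexin, had 597 to 837 CPM in members and 9.95 to 46.6 CPM in conventional dendritic cells. Zmynd15 had 361 to 583 CPM in members and 0 to 15.3 CPM in conventional dendritic cells. Marcksl1, an actin regulator near the membrane, had 725 to 1055 CPM in members and 93.1 to 219.8 CPM in conventional dendritic cells.

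In cells thinned to 2000 UMIs each, at least 1 UMI of Cd63 was found in 74.0% of members, 1.32% of conventional dendritic cells and 0.633% of T cells. The share with a Ccl5 UMI was 81.7% in members, 22.0% in conventional dendritic cells and 3.83% in T cells. Before thinning these Ccl5 shares were 87.1%, 35.7% and 6.83%, at median depths of 3833 UMIs in members, 5715 in conventional dendritic cells and 5181 in the 3000 T cells sampled. The T cell gene Cd3d, which members should lack, gave a UMI in 4.79% of thinned members and 2.20% of thinned conventional dendritic cells.

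Costimulatory genes were higher in members for 6 of 10 measured: Cd40, Icosl, Il15ra, Tnfrsf9, Tnfrsf4 and Cd200. Cd40, the receptor through which helper T cells license dendritic cells, had 161, 255, 257, 181, 219 and 116 CPM in members, against 19.4, 19.7, 33.2, 46.6, 72.1 and 38.3 CPM in conventional dendritic cells. Icosl, the ligand of the T cell receptor Icos, had 114 to 245 CPM in members and 19.4 to 53.6 CPM in conventional dendritic cells. The B7 genes did not share this direction. Cd86 had 94.0, 72.3, 128, 102, 108 and 119 CPM in members, against 194, 257, 216, 233, 258 and 222 CPM in conventional dendritic cells, and all 6 member values lay below all 6 of the conventional cells. Cd80 had 18.7 to 35.0 CPM in members and 5.18 to 42.3 CPM in conventional dendritic cells, which overlap. Cd274, which encodes the checkpoint ligand PD-L1, had 38.1 to 168 CPM in members and 0 to 65.2 CPM in conventional dendritic cells, also with overlap.

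Among chemokine and cytokine ligand genes, Ccl5, Cxcl16, Ccl19 and Il15 were higher in members and Il1b was lower, of 12 measured. Il15, whose product sustains memory CD8 T cells and natural killer cells, had 69.9, 149.5, 136, 95.3, 81.7 and 52.0 CPM in members, against 6.48, 2.82, 0, 5.18, 10.3 and 3.83 CPM in conventional dendritic cells. Il15ra, which presents it to neighbouring cells, had 58.4 to 109 CPM in members and 0 to 19.4 CPM in conventional dendritic cells. Cxcl16 had 425 to 774 CPM in members and 79.0 to 124 CPM in conventional dendritic cells. Ccl19, a ligand of Ccr7, had 16.1 to 30.6 CPM in members and no UMI in conventional dendritic cells. Of 11 inhibitory and regulatory genes measured, Fas, Socs2, Aldh1a2 and Tnfrsf11a were higher and Havcr2 and Cd300a were lower. Aldh1a2, which makes retinoic acid from retinal, had 107, 284, 175, 137, 131 and 122 CPM in members, against 12.9, 16.9, 3.32, 20.7, 20.6 and 7.66 CPM in conventional dendritic cells. Socs2, a feedback inhibitor of cytokine signalling, had 133 to 417 CPM in members and 0 to 5.18 CPM in conventional dendritic cells.

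Class II genes ran the other way. H2-Ab1, H2-Eb1, H2-DMa, H2-DMb1, Ciita and March1 were lower in members, of 13 measured, and Lgmn, a lysosomal protease, was higher. H2-Ab1, which encodes a class II beta chain, had 3404, 2891, 3804, 2962, 3832 and 4802 CPM in members, against 9706, 12333, 11419, 10719.9, 11147 and 10210.1 CPM in conventional dendritic cells. Ciita, the factor that drives class II transcription, had 59.1, 56.1, 38.9, 38.1, 68.6 and 91.8 CPM in members, against 201, 209, 123, 171, 148 and 184 CPM in conventional dendritic cells. March1, a ligase that marks class II molecules and Cd86 for removal from the surface, had 8.72 to 30.6 CPM in members and 68.7 to 157 CPM in conventional dendritic cells. Members stayed above all other cells for H2-Aa, H2-Ab1, H2-Eb1, Cd74, Ctss and Lgmn. Of 17 class I genes, B2m, Tapbpl and Psme2 were higher in members than in conventional dendritic cells and none was lower. In cells thinned to 2000 UMIs, an H2-Ab1 UMI was found in 57.7% of members and 98.7% of conventional dendritic cells (67.1% and 99.6% before thinning), against 4.07% of T cells. By cluster of members, unthinned, it was found in 32.5% of cluster 1 and 100% of cluster 5.

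**Figure D1:**
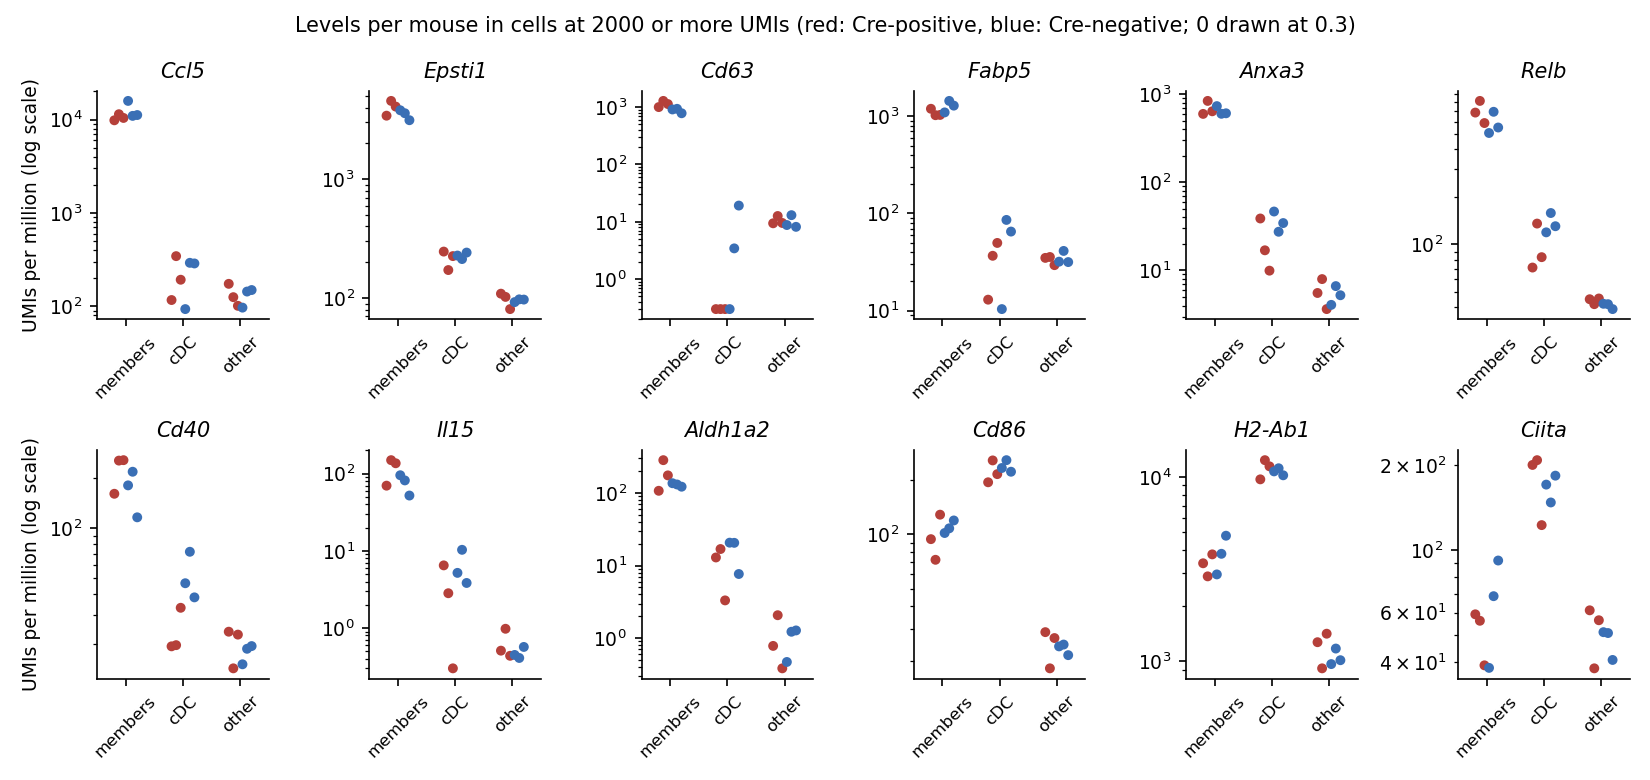
Levels of 12 genes per mouse in cells at 2000 or more UMIs, in CPM on a log scale, for members, conventional dendritic cells (cDC) and all other cells. Red points are Cre-positive mice and blue points Cre-negative mice; points at 0 are drawn at 0.3. Ccl5, Epsti1, Cd63, Fabp5, Anxa3, Relb, Cd40, Il15 and Aldh1a2 are highest in members, and Cd86, H2-Ab1 and Ciita are highest in conventional dendritic cells.

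Outside every list, the 15 genes with the largest mean log2 difference from all other cells at 100 CPM or more in members were led by Bcl2a1a, Hebp1, Basp1, Eno3, Nostrin, Clu and Asprv1. Bcl2a1a, a survival gene of the Bcl2 family whose near-identical copies can share reads, averaged 552 CPM in members and 317 CPM in conventional dendritic cells. Eno3, a glycolytic enolase, averaged 554 CPM in members and 29.8 CPM in conventional dendritic cells. Clu, which encodes clusterin, averaged 191 CPM in members and 0.470 CPM in conventional dendritic cells. Asprv1, a retroviral-like protease known from skin, averaged 146 CPM in members and 0.639 CPM in conventional dendritic cells. Aif1 averaged 384 CPM in members and 789 CPM in conventional dendritic cells, so its large difference from all other cells was not a difference from dendritic cells.

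Of 20 measured NF-kB and survival genes, Relb, Birc2, Cflar and Cd40 were higher in members than in conventional dendritic cells. Relb, the partner of the non-canonical NF-kB pathway that drives dendritic cell maturation, had 685, 812, 588, 509, 693 and 551 CPM in members, against 71.2, 135, 82.9, 119, 158 and 130.3 CPM in conventional dendritic cells. Birc2, a ligase of that pathway, had 308 to 593 CPM in members and 26.5 to 71.2 CPM in conventional dendritic cells. Nfkb2, whose product p100 is processed to pair with Relb, had 94.9 to 136 CPM in members and 39.8 to 88.1 CPM in conventional dendritic cells, and did not reach 2-fold in every mouse. Promoter sequences of the listed genes were searched on both strands for the kB consensus, counting matches also where they overlap. Promoter windows of 300 bases, most of each before the annotated start, were taken from RefSeq on build GRCm38.p6. A match was found in 8.46% of 32851 windows and 9.55% of 27025 genes. It was found in 0 of 7 matched markers of the rule, 5 of 24 matched genes of the mature list (20.8%), 9 of 18 of the NF-kB list (50%) and 3 of 11 of the class II list (27.3%). These shares describe letters in a window and say nothing about binding. The windows of Nfkb2 and Epsti1 are shown because they hold matches, and those of Fscn1 and Ccl22 because they mark the cells and hold none; capitals are the matches.
Nfkb2, chr19:46304487-46304786 on the plus strand: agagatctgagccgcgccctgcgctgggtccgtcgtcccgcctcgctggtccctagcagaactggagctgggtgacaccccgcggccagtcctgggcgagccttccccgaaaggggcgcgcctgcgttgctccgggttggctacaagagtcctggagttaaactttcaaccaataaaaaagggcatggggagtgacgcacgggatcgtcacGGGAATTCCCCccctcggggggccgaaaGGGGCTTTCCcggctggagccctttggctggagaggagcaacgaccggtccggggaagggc
Epsti1, chr14:77903989-77904288 on the plus strand: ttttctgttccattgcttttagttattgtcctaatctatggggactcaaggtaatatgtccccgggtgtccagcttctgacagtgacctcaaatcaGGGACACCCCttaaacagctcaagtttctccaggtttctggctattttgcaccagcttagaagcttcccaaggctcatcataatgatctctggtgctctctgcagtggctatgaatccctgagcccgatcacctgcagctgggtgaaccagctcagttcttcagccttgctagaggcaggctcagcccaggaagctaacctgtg
Fscn1, chr5:142960105-142960404 on the plus strand: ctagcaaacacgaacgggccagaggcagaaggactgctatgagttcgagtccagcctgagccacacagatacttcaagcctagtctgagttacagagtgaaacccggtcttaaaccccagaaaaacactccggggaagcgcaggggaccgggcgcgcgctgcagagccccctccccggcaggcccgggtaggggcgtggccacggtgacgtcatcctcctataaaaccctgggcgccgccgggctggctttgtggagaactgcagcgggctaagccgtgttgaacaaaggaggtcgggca
Ccl22, chr8:94745434-94745733 on the plus strand: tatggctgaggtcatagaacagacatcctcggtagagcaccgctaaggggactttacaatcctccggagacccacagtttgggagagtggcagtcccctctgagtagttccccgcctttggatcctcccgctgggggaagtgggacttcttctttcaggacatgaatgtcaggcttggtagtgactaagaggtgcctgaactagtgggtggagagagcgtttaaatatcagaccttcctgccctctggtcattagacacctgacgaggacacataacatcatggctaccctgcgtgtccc
The Nfkb2 window shown is the first of 3 in the table. In it 3 matches were counted, of which 2 overlap in the first run of capitals, and the first match from the 5′ end of the window began 39 bases before the start. The Epsti1 match began 154 bases before the start.

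The members were not uniform. T cell markers outside the rule summed to 509.7 to 1059 CPM in members at 2000 or more UMIs over the 6 mice, 181 to 360.1 CPM in conventional dendritic cells and 9242 to 9684 CPM in T cells, and none of the 18 was at 0 in members. B cell markers summed to 123 to 443 CPM in members and 197 to 295 CPM in conventional dendritic cells, with 1 of 18 at 0 in members. Macrophage markers summed to 419 to 1328 CPM in members and 227 to 326 CPM in conventional dendritic cells. Plasmacytoid dendritic cell markers summed to 361 to 1467 CPM in members and 249 to 326 CPM in conventional dendritic cells. The conventional class was chosen to hold no UMI of Siglech or C1qa and the members were not, so the macrophage and plasmacytoid sums of these classes differ in part by that choice. Markers of type 1 conventional dendritic cells, which cross-present antigen to CD8 T cells, were lower in members for 9 of 14, namely Xcr1, Clec9a, Naaa, Ifi205, Itgae, Wdfy4, Tlr3, Snx22 and Ppt1. The conventional class was defined by Xcr1, Clec9a, Naaa and Ifi205 among others, so the direction of these follows from that choice, and the levels of the other 5 are not independent of it. Xcr1 had 0 to 42.3 CPM in members and 104 to 335 CPM in conventional dendritic cells. The upper value in members was that of Cre-negative mouse 2, where 24 of 29 UMIs were in 1 cell. Of 13 measured type 2 markers, Cd1d1, Tmem176a and Tmem176b were higher and Clec4a2 was lower. The Langerhans cell marker Cd207, which type 1 cells of other tissues also carry, gave 26 UMIs in 6 of 999 members, against 231 UMIs in 72 of 227 conventional dendritic cells.

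Clustering of the 480 members at 2000 or more UMIs gave 7 clusters, and the genes that define them are a description. Cluster 1 (114 cells) was led by H2-T22, Epsti1 and Ccl5, with 29968 CPM of Ccl5 and 473 CPM of H2-Ab1. Cluster 2 (98 cells) was led by Cxcl9, Cst3, Ppt1 and Bcl2l14. Its 220 Cxcl9 UMIs were in 10 cells (10.2%), and a Cxcl9 UMI was found in 20.8% of cluster 5 and 27.8% of cluster 6. The type 1 markers Xcr1 and Naaa had 78.2 and 105 CPM in cluster 2. Of the 41 Xcr1 UMIs in all members at 2000 or more UMIs, however, 24 were in 1 cell. Il12b, a subunit of interleukin 12, had 51.3 CPM in cluster 2, from 21 UMIs in 5 cells. Over all members at 2000 or more UMIs Il12b had 27 UMIs, 14 of them in 1 cell. Cluster 3 (87 cells) was the deepest of clusters 1 to 4, with a median of 9395 UMIs, and held 2814 CPM of Ccr7 and 1602 CPM of the repressor gene Etv3. Cluster 4 (75 cells) was led by Asprv1, Ido1 and Apol7c, with the pancreas protease gene Ctrc also among its leading genes, and held 3173 CPM of Fabp5. Ido1, which breaks down tryptophan, had 124 CPM there and at most 14.5 CPM in any other cluster. In clusters 1 to 4, which held 374 members (77.9%), the mature list summed to over 15000 CPM, a limit chosen after the values were seen.

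The other 3 clusters held 106 members (22.1%) and were led by other genes. Cluster 5 (48 cells) was led by Il1b, Klf4, Nr4a1 and H2-DMb2 and had 9355 CPM of H2-Ab1, 867 CPM of Ccl5 and 398 CPM of Fscn1. Cluster 6 (36 cells) was led by Apoe, C1qa, Lyz2 and Siglech, genes of macrophages and plasmacytoid cells, and 9 of its cells were called doublets. Cluster 7 (22 cells) was led by Trbc2, Cd3d and Trac, genes of the T cell receptor, and 7 of its cells were called doublets. Of all 480 members at 2000 or more UMIs, 34 (7.08%) were called doublets.

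**Figure D2:**
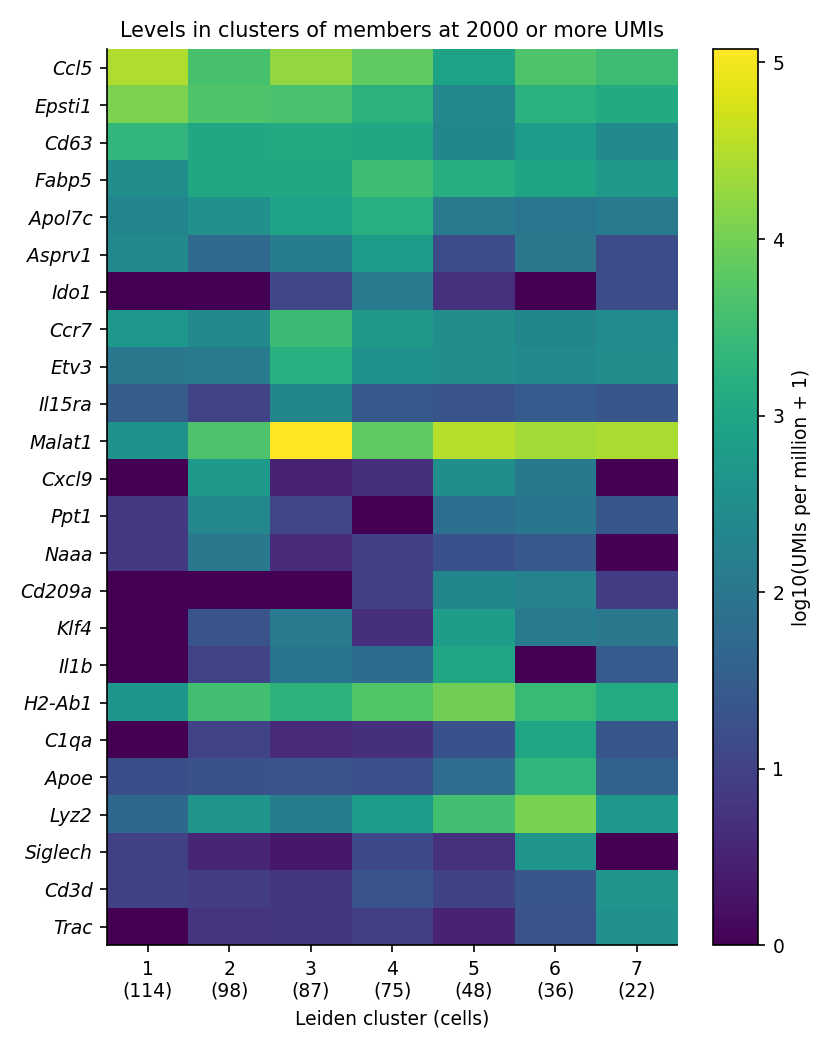
Levels of 24 genes in the 7 Leiden clusters of members at 2000 or more UMIs, as log10(CPM + 1) (colour scale), with the number of cells under each cluster. UMIs were pooled over all mice. Cd63 is highest in clusters 1 to 4; cluster 5 carries Klf4 and Il1b, cluster 6 C1qa, Apoe and Siglech, and cluster 7 Cd3d and Trac.

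Shares of the clusters were compared between genotypes. Cluster 3 held 18.8%, 25.6% and 19.0% of members in Cre-positive mice, against 8.70%, 18.9% and 10.9% in Cre-negative mice. The lowest Cre-positive share lay within the Cre-negative range, and the exact two-sided permutation test gave p = 0.2, or 0.7 adjusted over the 7 clusters. Cluster 4 gave the same p and no cluster a smaller one, and 3 mice against 3 cannot give one below 0.1. In a gate on type 1 and type 2 marker genes, 69 of the 480 members at 2000 or more UMIs (14.4%) fell to type 1, 313 (65.2%) to type 2 and 98 (20.4%) to neither. The genes and limits of the gate are not given here, so its type names are only labels. Xcr1 was found in 2.92% and Cd209a in 5.42% of these members. The type 1 gate took 23.2%, 20% and 11.9% of them in Cre-positive mice, against 10.1%, 8.11% and 10.9% in Cre-negative mice. The groups did not overlap, at the smallest p the design allows (exact permutation test, p = 0.1, not adjusted).

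Most members held little or no Malat1. Malat1 is a long noncoding RNA that stays in the nucleus and is abundant in most cell types. Malat1 was under 0.5% of UMIs in 808 of 999 members (80.9%, exact binomial 95% interval 78.3% to 83.3%), and 525 had no Malat1 UMI at all. The limit of 0.5% was chosen after the values were seen, and only 26 members lay between 0.25% and 1%. The share was 96.3% in the 519 members under 2000 UMIs and 64.2% in the 480 at 2000 or more. Conventional dendritic cells at 2000 or more UMIs had it in 62.1% of 227 cells. T cells of that depth had it in 2.69% of 35575 cells, and B cells in 2.39% of 12321. Under 2000 UMIs the share was 16.3% of 447 T cells and 35.8% of 240 B cells. Intervals cover counting error only.

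The share was lower in deeper members. It was 94.5% of 163 members with 2000 to 3000 UMIs, 90.4% of 136 with 3000 to 5000 UMIs, 34.7% of 75 with 5000 to 8000 UMIs and 4.72% of 106 with 8000 or more. In T cells of the same depths it was 4.30%, 2.61%, 1.85% and 5.19%. Conventional dendritic cells had 96.3% of 27, 95.8% of 71, 60.7% of 61 and 14.7% of 68 cells in those depth ranges. By cluster, 99.1% of cluster 1, 94.9% of cluster 2 and 92.0% of cluster 4 were under 0.5% Malat1, against 0 of 87 cells of cluster 3, whose median Malat1 share was 9.46%.

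**Figure D3:**
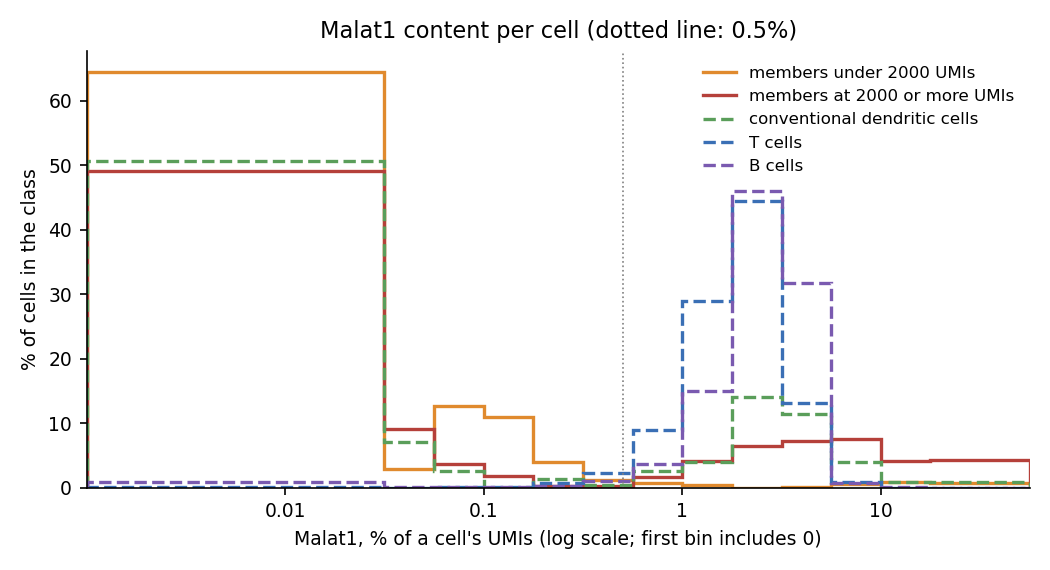
Malat1 as a percentage of each cell's UMIs (log scale, with cells at 0 in the first bin) against the percentage of cells in the class. Solid lines are members under 2000 and at 2000 or more UMIs, dashed lines conventional dendritic cells, T cells and B cells at 2000 or more UMIs, and the dotted line marks 0.5%. Members and conventional dendritic cells form 2 groups either side of the dotted line, and T and B cells lie mostly above it.

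Other RNA classes differed between these groups of members at 2000 or more UMIs. Summed per mouse over the cells with Malat1 under 0.5%, immediate early genes, which are transcribed within minutes of a stimulus, took 0.0402% ± 0.00745 of UMIs, against 0.792% ± 0.168 over the cells at 0.5% or more (SD, n = 6 mice). Mitochondrially encoded RNA took 2.07% ± 0.134 of UMIs, against 3.88% ± 0.587. Ribosomal protein genes took 30.3% ± 1.90, against 18.9% ± 1.47. The class II genes H2-Aa, H2-Ab1, H2-Eb1 and Cd74 together took 1.96% ± 0.275, against 2.77% ± 0.626. Ccl5 had 11561 to 15477 CPM over the 6 mice in the cells with Malat1 under 0.5%, and 8199 to 19616 CPM in those at 0.5% or more. Fscn1 had 1566 to 2031 CPM in the cells with Malat1 under 0.5% and 626 to 1797 CPM in the others, so the markers of the rule were present in both. These cells were split by a measured value, so no test is given.

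Members under 2000 UMIs were compared with members at 2000 or more UMIs of the same mice. Here 864 genes passed (43.2% of those tested), 393 higher (19.7%) and 471 lower (23.6%) in the members under 2000 UMIs (edgeR's quasi-likelihood F test with mouse as a block, Benjamini-Hochberg adjusted p under 0.05). The rule asks a shallow cell for as many markers as a deep one. Genes that go with the markers are therefore not independent of the rule in this comparison, and their direction is read only as a description of the cells chosen.

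Immediate early genes were lower in the shallow members. All 10 immediate early genes tested were lower, with a median log2 fold of -3.32, against 0.01 over all genes tested. Fos had 0, 13.4 and 41.4 CPM in Cre-positive and 21.9, 14.6 and 21.9 CPM in Cre-negative mice in members under 2000 UMIs, against 403, 236 and 942 CPM in Cre-positive and 257, 276 and 306 CPM in Cre-negative mice in members at 2000 or more UMIs (log2 fold -4.26 ± 0.30 (SE), adjusted p = 1.55e-35). All 6 mice were lower in the shallow members. Zfp36, whose product speeds the decay of inflammatory mRNAs, was lower (log2 fold -4.12 ± 0.24 (SE), adjusted p = 7.46e-50), as was the transcription factor gene Atf3 (log2 fold -4.26 ± 0.29 (SE), adjusted p = 5.88e-38). The nuclear RNA Neat1 was lower (log2 fold -2.43 ± 0.26 (SE), adjusted p = 1.61e-17), and Klf6, a gene outside the lists with the smallest p, was lower too (log2 fold -3.85 ± 0.20 (SE), adjusted p = 2.71e-51). The gene of the NF-kB inhibitor, Nfkbia, was lower (log2 fold -1.38 ± 0.13 (SE), adjusted p = 4.31e-19).

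Mitochondrially encoded genes were lower for 12 of 12 tested, with a median log2 fold of -1.06. mt-Co3 was lower (log2 fold -0.92 ± 0.09 (SE), adjusted p = 4.23e-15). Class II genes were lower for 8 of 10, with a median log2 fold of -0.97. H2-Ab1 had 1253, 2070.0, 1906, 1150.3, 1329.7 and 979.6 CPM in the 6 mice in members under 2000 UMIs, against 3404, 2891, 3804, 2962, 3832 and 4802 CPM in members at 2000 or more (log2 fold -1.31 ± 0.24 (SE), adjusted p = 0.00702). Every shallow value lay below every deep value. When the members at 2000 or more UMIs were limited to clusters 1 to 4, 1 of 7 class II genes tested was lower, and H2-Ab1 did not pass (log2 fold -0.82, adjusted p = 0.06135 by edgeR).

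Summed over each depth class, Ccl5 and the interferon-inducible gene Epsti1 were higher in shallow members. This direction was not seen close to the limit of 2000 UMIs, in sums pooled over all mice. The 53 members closest below it had 22172 CPM of Ccl5 and 7556 CPM of Epsti1. The 41 closest above it had 27197 CPM of Ccl5 and 7602 CPM of Epsti1. Among the clusters of deep members, Ccl5 ran from 867 CPM in cluster 5 to 29968 CPM in cluster 1. The values near the limit were not tested. Ccl5 had 26209, 20586, 24655, 29085, 30721 and 25288 CPM in the 6 mice under 2000 UMIs, against 9821, 11411, 10408, 15846, 10954 and 11183 CPM at 2000 or more (log2 fold 1.21 ± 0.07 (SE), adjusted p = 1.24e-41), and the depth classes did not overlap. Epsti1 (log2 fold 1.12 ± 0.08 (SE), adjusted p = 2.11e-30) and Psme1, an activator of the proteasome (log2 fold 0.95 ± 0.09 (SE), adjusted p = 4.96e-21), were higher as well. Of 15 class I genes, 6 were higher and none was lower (median log2 fold 0.25), but against clusters 1 to 4 alone 1 was higher and 7 were lower (median -0.23). B2m, the light chain of class I, had 7432 to 9986 CPM in shallow and 5006 to 7043 CPM in deep members (log2 fold 0.49 ± 0.08 (SE), adjusted p = 9.34e-09). Of 27 mature genes tested, 12 were higher and 5 lower (median log2 fold 0.24), but against clusters 1 to 4 alone 2 were higher and 10 lower (median -0.25). Tmsb4x, which binds actin monomers, was higher (log2 fold 0.76 ± 0.07 (SE), adjusted p = 5.47e-26), while Cd83 was lower (log2 fold -0.98 ± 0.19 (SE), adjusted p = 1.73e-06).

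The count of genes depended on which deep members stood in the comparison. With clusters 1 to 4 alone, 340 of 1492 genes passed, 77 higher and 263 lower. With the deep members under 0.5% Malat1 alone, 87 of 1209 passed, 34 higher and 53 lower. Against clusters 1 to 4, 5 of 5 immediate early genes tested were lower (median log2 fold -1.70) and 11 of 11 mitochondrial genes were (median -0.78). Against the members under 0.5% Malat1, 0 of 2 immediate early genes tested was lower, 1 was higher (Junb, log2 fold 0.69, adjusted p = 0.01624 by edgeR), and 4 of 11 mitochondrial genes were lower. There 2 of 15 class I genes and 4 of 25 mature genes were higher and none of either was lower. Of the 102 list genes that passed with all deep members, 14 of 86 measured turned round with clusters 1 to 4 and 18 of 68 with the members under 0.5% Malat1. Ccl5 passed as higher in both, with a log2 fold of 0.54 against clusters 1 to 4 and 0.98 against the members under 0.5% Malat1. Epsti1 (0.45 and 0.37) and Psme1 (0.43 and 0.33) passed as higher in both too, while Psme2, the other proteasome activator gene listed, passed in neither (0.25 and 0.082). B2m did not pass against clusters 1 to 4 (0.017), and passed as higher against the members under 0.5% Malat1 (0.26). Against these low-Malat1 members Nfkbia turned round (0.43) without passing, and Cd83 (-0.017), Tmsb4x (0.057), mt-Co3 (-0.42) and H2-Ab1 (-0.59) did not pass. Fos, Atf3, Zfp36, Neat1 and Klf6 had too few UMIs there to be tested, and neither Fos nor Atf3 was tested against clusters 1 to 4.

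The depth contrast of members was set against that of T and B cells. Malat1 took 0.871%, 0.419% and 0.273% of UMIs in members under 2000 UMIs of Cre-positive mice and 0.54%, 0.219% and 0.0987% of Cre-negative mice, against 4.94%, 6.85% and 3.26% at 2000 or more UMIs in Cre-positive mice and 2.38%, 5.26% and 3.39% in Cre-negative mice. T cells under 2000 UMIs had 3.95% ± 1.10 Malat1, against 2.00% ± 0.102 at 2000 or more (SD, n = 6 mice). The log2 ratio of shallow to deep cells was lower in members than in T cells by 4.59 ± 0.99 (SD) for Malat1, by 3.59 ± 0.91 for immediate early genes and by 1.23 ± 0.42 for mitochondrial RNA, and higher by 1.03 ± 0.21 for ribosomal protein genes. Each direction was found in 6 of 6 mice, at the smallest p that an exact sign-flip permutation test of 6 mice allows (p = 0.03125, adjusted p = 0.0361 over 15 tests). Against B cells the same 4 differences were found in 6 of 6 mice, from a test of the same kind with the same p. For class II RNA the difference did not pass against T cells (exact permutation p = 0.0625) or B cells (exact permutation p = 0.281). Conventional dendritic cells under 2000 UMIs were few, and the contrast was not tested against them. They were low in Malat1 as well: 5 of 5 with 500 to 1000 UMIs and 19 of 20 with 1000 to 2000 UMIs were under 0.5%. These tests and the use of T and B cells were chosen after the values were seen.

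**Figure D4:**
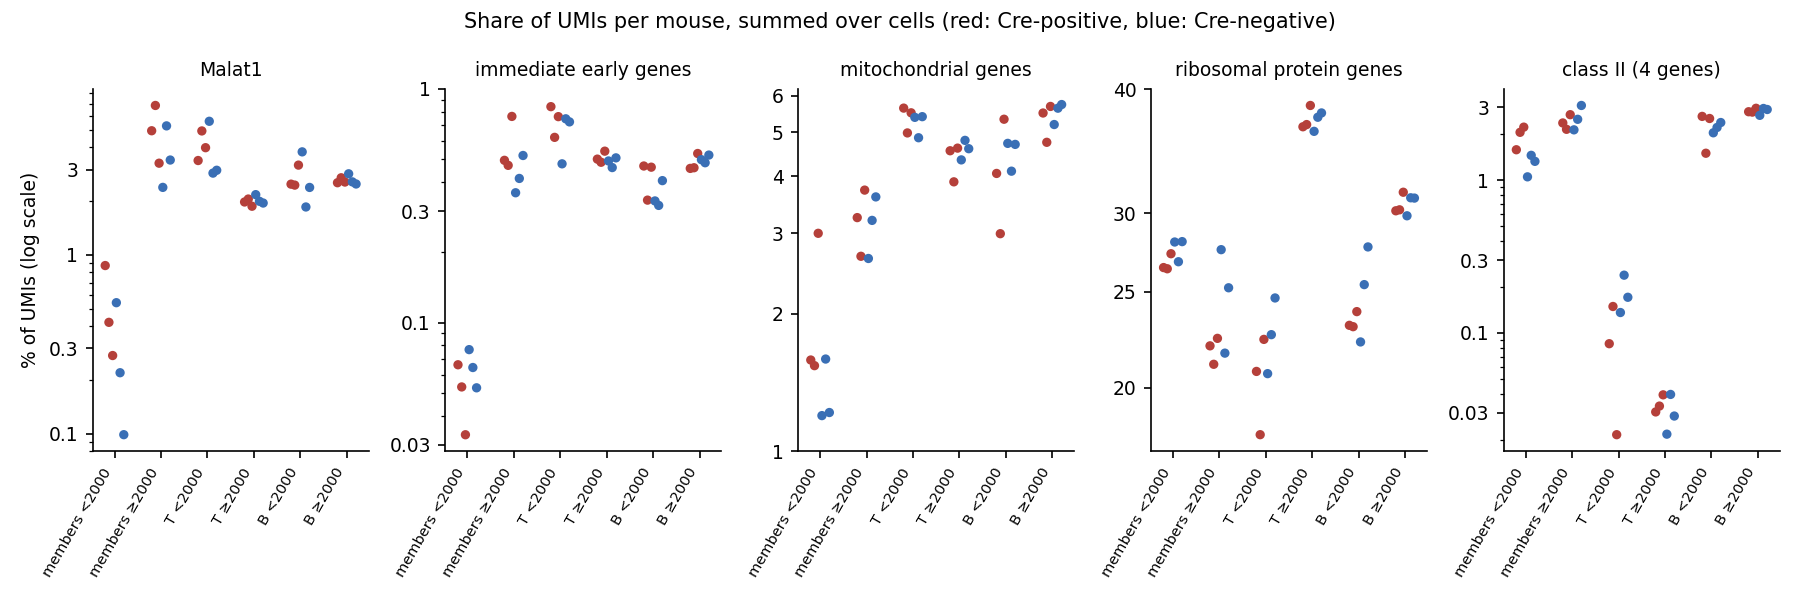
Share of UMIs (log scale, %) taken by Malat1, immediate early genes, mitochondrial genes, ribosomal protein genes and 4 class II genes, summed over cells per mouse, for members, T cells and B cells under and at 2000 or more UMIs. Red points are Cre-positive mice and blue points Cre-negative mice. Malat1 and immediate early genes are far lower in members under 2000 UMIs than in members at 2000 or more, with no such gap in T or B cells; conventional dendritic cells are not drawn.

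The study set mice with CD4-Cre against mice without it. Members made up 1.46%, 2.33% and 0.636% of cells in Cre-positive mice, against 2.00%, 2.55% and 1.79% in Cre-negative mice. The means were 1.47% ± 0.846 and 2.11% ± 0.398 (SD, n = 3 each), with overlap between the groups, and the exact two-sided permutation test gave p = 0.4. Members under 2000 UMIs made up 54.6%, 48.3% and 31.1% of members in Cre-positive mice, against 52.7%, 49.8% and 63.8% in Cre-negative mice (exact permutation test, p = 0.4). Cre-positive mouse 3 was the lowest of the 6 in both measures.

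The share of members with Malat1 under 0.5% of UMIs was lower in each Cre-positive mouse than in any Cre-negative mouse. They made up 75.7%, 79.3% and 68.9% of members in Cre-positive mice, against 87.0%, 81.0% and 86.4% in Cre-negative mice. The groups did not overlap, although the nearest values, 79.3% and 81.0%, lay inside each other's exact binomial intervals. The means were 74.6% ± 5.32 and 84.8% ± 3.31 (SD, n = 3 each), a difference of -10.2 percentage points. The exact two-sided permutation test gave p = 0.1, the smallest that 3 mice against 3 allow, so the design cannot pass 0.05. At 2000 or more UMIs the shares were 55.1%, 62.4% and 57.1% in Cre-positive mice, against 78.3%, 64.9% and 65.6% in Cre-negative mice. Under 2000 UMIs they were 92.8%, 97.4% and 94.7% in Cre-positive mice, against 94.8%, 97.3% and 98.2% in Cre-negative mice, with overlap. This comparison was chosen after the values were seen.

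**Figure D5:**
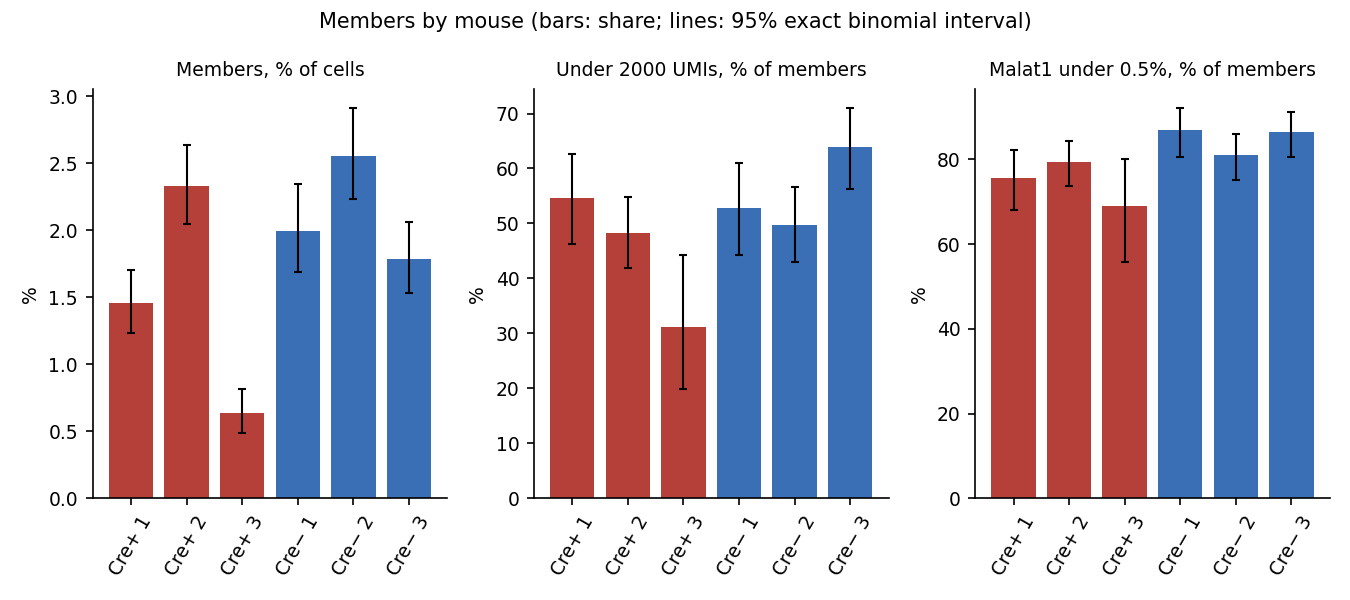
Members as a percentage of all cells, members under 2000 UMIs as a percentage of members, and members with Malat1 under 0.5% of UMIs as a percentage of members, in Cre-positive (red) and Cre-negative (blue) mice, with bars from 0 and lines for the exact binomial 95% interval. Cre-positive mouse 3 is lowest in all 3 panels, and only in the third do the groups not overlap.

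No gene passed the test between genotypes in members at 2000 or more UMIs. Of 3788 genes, 0 passed with edgeR (0.0%) and 225 were at an unadjusted p under 0.05 (5.94%); DESeq2 called 0, with 102 at an unadjusted p under 0.05. The smallest adjusted p was 0.605, for Cd82, a tetraspanin. Cd82 had 34.9, 22.4 and 23.4 CPM in Cre-positive mice, against 54.0, 84.6 and 94.9 CPM in Cre-negative mice (log2 fold -1.59 ± 0.32 (SE), adjusted p = 0.605 by edgeR). Its groups did not overlap, but it was taken for its small p in this fit and did not pass. The share of all 3788 genes without overlap was not counted, so nothing is read from this. The others of the 10 genes of smallest p were Bsdc1, Sh2d4a, Pvr, Zfp36l1, Rpl29, Hivep1, BC005537, Mmp25 and Tpgs1, which did not pass either. Sh2d4a averaged 23.5 CPM in Cre-positive and 56.2 CPM in Cre-negative mice, on the scale of the fit (log2 fold -1.29 ± 0.30 (SE), adjusted p = 0.802 by edgeR). Ccl5 had 9821, 11411 and 10408 CPM in Cre-positive mice, against 15846, 10954 and 11183 CPM in Cre-negative mice (log2 fold -0.31 ± 0.17 (SE), adjusted p = 0.807 by edgeR). Of 31 mature genes tested, 27 had a positive log2 fold, with a median of 0.24, against 0.01 over all genes, and 0 passed. Other lists had positive medians too, with 0 passing: type I interferon genes, positive in 7 of 10 (median 0.55), immediate early genes in 10 of 12 (median 0.45), T cell markers in 5 of 8 (median 0.41) and nuclear RNA genes in 3 of 4 (median 0.37). So had inhibitory and regulatory genes in 7 of 8 (median 0.55), cholesterol and lipid genes in 7 of 9 (median 0.39) and migration genes in 10 of 13 (median 0.34), which share genes with the mature list. Lists with negative medians included Langerhans cell markers (-0.96), chemokine and cytokine ligand genes (-0.31) and macrophage markers (-0.31). The part of these lists in the mature list's values was not tested. Of 12 class II genes, 2 were positive and the median was -0.19.

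In members under 2000 UMIs, 0 of 1166 genes passed with edgeR (0.0%) and 70 were at an unadjusted p under 0.05 (6.003%); DESeq2 called 0, with 20 at an unadjusted p under 0.05. Class II genes filled the first ranks by p without passing. H2-Eb1 had 3089, 4187 and 4434 CPM in Cre-positive mice, against 2169, 2637 and 2785 CPM in Cre-negative mice (log2 fold 0.61 ± 0.13 (SE), adjusted p = 0.235 by edgeR). H2-Aa had 4401, 5114 and 5884 CPM in Cre-positive mice, against 2531, 3704 and 3992 CPM in Cre-negative mice (log2 fold 0.57 ± 0.15 (SE), adjusted p = 0.68 by edgeR). Cd74, the chain that escorts class II molecules, had 7082, 9207 and 10028 CPM in Cre-positive mice, against 4667, 6875 and 5527 CPM in Cre-negative mice (log2 fold 0.62 ± 0.16 (SE), adjusted p = 0.68 by edgeR). None of these 3 overlapped between the groups, but they were taken for their small p in this fit. The share of all 1166 genes without overlap was not counted, so nothing is read from this. H2-Ab1 had 1253, 2070.0 and 1906 CPM in Cre-positive mice, against 1150.3, 1329.7 and 979.6 CPM in Cre-negative mice, which overlap (log2 fold 0.59 ± 0.18 (SE), adjusted p = 0.68 by edgeR). All 6 class II genes tested had a positive log2 fold, with a median of 0.58, against -0.0044 over all genes. In the same fit 9 of 10 mitochondrially encoded genes (median 0.48) and 2 of 2 nuclear RNA genes (median 0.52) were positive, as were the 1 B cell marker (0.82) and the 1 plasmacytoid marker (0.71) tested, with 0 passing. Their part in the class II values was not tested. Cre-positive mouse 1 had the lowest level of each of H2-Eb1, H2-Aa, Cd74 and H2-Ab1 among the Cre-positive mice. Without this mouse all 4 passed (adjusted p 0.000127 to 0.0275 by edgeR). That setting called 8 of 1494 genes, 6 higher and 2 lower, with mt-Co1 among the higher (log2 fold 0.73, adjusted p = 0.03808 by edgeR). It kept Cre-positive mouse 3, whose sum rested on 19 cells and 24137 UMIs. Mouse 3 had the highest H2-Eb1, H2-Aa and Cd74 of all mice. Its shallow members had a median of 2.31% mitochondrial UMIs, against 0.309% to 0.711% in the other mice. With all mice, the remaining 6 of the 10 genes of smallest p, Asprv1, Naa38, mt-Co1, Rps27, S100a11 and Ndufb7, did not pass.

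The genotype effect in members at 2000 or more UMIs was set against that in conventional dendritic cells of the same mice. Of 4261 genes, 2 differed (0.0469%), 1 higher (0.0235%) and 1 lower (0.0235%) in its effect in members, by edgeR's quasi-likelihood F test of the interaction. Cxcl2, a chemokine that draws neutrophils, had 8.06, 489.7 and 121 CPM in members of Cre-positive mice, against 0, 4.38 and 15.3 CPM in Cre-negative mice, and 0, 73.3 and 16.6 CPM in conventional dendritic cells of Cre-positive mice, against 0, 20.6 and 30.6 CPM in Cre-negative mice. Its difference of log2 folds was 4.36 ± 0.72 (SE, adjusted p = 0.0104 by edgeR). Of its 437 UMIs in all members, 374 were in 1 cell of Cre-positive mouse 2. Mmp12, a macrophage protease that cuts elastin, had 0, 6.23 and 0 CPM in members of Cre-positive mice, against 50.9, 0 and 94.9 CPM in Cre-negative mice, and 25.9, 45.1 and 69.6 CPM in conventional dendritic cells of Cre-positive mice, against 0, 3.43 and 11.5 CPM in Cre-negative mice. Its difference of log2 folds was -6.64 ± 1.16 (SE, adjusted p = 0.0198 by edgeR), from 52 UMIs in 6 members. With clusters 1 to 4 alone in place of all members, 0 of 3367 genes passed with edgeR and 145 were at an unadjusted p under 0.05. Cxcl2 did not pass without Cre-negative mouse 2 (adjusted p = 0.3485) or 3 (adjusted p = 0.1932) and was not among the genes tested without Cre-positive mouse 2. Mmp12 did not pass without Cre-negative mouse 1 (adjusted p = 0.06302) or 3 (adjusted p = 1), all by edgeR. In members, both differences rested on few cells. The other 8 of the 10 genes of smallest p, Drap1, Tet3, Tlr3, Gm26917, Ccl2, BC005537, Cd40 and Pcgf5, did not pass.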

How the data were processed

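The deposited values are UMI counts per gene and cell barcode, which the authors made with Cell Ranger 6.1.2 on mm10, per the submitters' processing notes and the file headers. Raw counts were filtered, classed by the marker rule and added up by mouse and class, so that n counts mice. The comparison between depth classes had mouse as a block. edgeR 4.0.16 (TMM factors, its expression filter, robust quasi-likelihood F test, Benjamini-Hochberg adjustment) was run in R 4.3.3, with DESeq2 1.42.0 as an alternative. The standard error of a log2 fold is its size divided by the square root of F. Shares were compared by exact two-sided permutation tests in scipy 1.17.1. Members at 2000 or more UMIs were clustered with scanpy 1.11.5 (Leiden resolution 0.5, 15 neighbours, 20 components, 1500 variable genes), and doublets were called by Scrublet per library at 0.8% per 1000 cells; called doublets stayed in unless said. The scripts were tested on simulated data.

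The members, the gene lists and several comparisons were chosen with earlier results of these data known. The genes named are the 11 of the rule, the genes that pass a genotype or interaction test or the 10 of smallest p, members of the lists, and the 15 largest outside them. Klf6 and Tmsb4x were named after their values were seen. The floxed gene is not reported here. Replicate numbers of the labels do not pair the mice: same-numbered mice deviated together with r of -0.08, 0.17 and 0.10 at 2000 or more UMIs and 0.02, -0.06 and -0.09 under 2000. Nothing beyond the labels says that the libraries are separate mice, so p-values measure the spread between these libraries. Alternatives changed the test, normalization, low-count filter, block, doublets, mitochondrial and UMI limits and marker number, and left out each mouse in turn. Those on clusters 1 to 4, on Malat1 and on the comparison with other cells were chosen after seeing the data. Promoters come from RefSeq on GRCm38.p6.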

Additional observations from a re-analysis of the deposited data

Results flagged for a closer look

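The genotype effect in members at 2000 or more UMIs differed from that in conventional dendritic cells for Cxcl2, by 4.36 on the log2 scale, and for Mmp12, by -6.64, in a test of the difference itself. The Cxcl2 value rests on a member of Cre-positive mouse 2 with 374 UMIs. The Mmp12 value rests on 52 UMIs in 6 members, and it did not pass without Cre-negative mouse 1 or without Cre-negative mouse 3. Neither gene passed with no mouse block, and no gene passed with clusters 1 to 4 alone.

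The log2 ratio of shallow to deep cells differed between members and lymphocytes in 6 of 6 mice. For Malat1 the ratio in members less that in T cells was -4.59, and less that in B cells -3.66. For mitochondrial RNA the differences were -1.23 from T cells and -0.63 from B cells. For ribosomal protein genes they were 1.03 from T cells and 0.57 from B cells. For immediate early genes they were -3.59 from T cells and -2.77 from B cells. Members under 2000 UMIs had to hold 3 markers among fewer UMIs, while T and B cells were chosen by their own genes. What this choice adds to the differences was not tested. Conventional dendritic cells under 2000 UMIs were low in Malat1 too, in 5 of 5 cells with 500 to 1000 UMIs and 19 of 20 with 1000 to 2000, and were not part of these tests.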

How the results depend on the processing

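Across the alternatives, 102 results that answer a comparison were taken as unchanged and 21 as moved, and the cause was not tested. All that moved were counts of genes, which moved when they changed beyond a set ratio or to or from 0. The differences in members per mouse, in members under 2000 UMIs and in low Malat1 kept their sign. Genes called between genotypes at 2000 or more UMIs numbered 13 of about 14450 tested with no low-count filter, against 0 of 3788 in the main fit. They numbered 1 of 2621 without UMIs of 5 further T and B genes. When a mouse was left out they numbered 0 to 3 (3 of 3891 without Cre-positive mouse 1, 2 of 3934 without Cre-negative mouse 2). Under 2000 UMIs they numbered 0 to 8 (8 of 1494 without Cre-positive mouse 1, 1 of 1454 without Cre-positive mouse 3). Interaction calls numbered 9 of about 15060 genes tested with no filter, against 2 of 4261 in the main fit. They numbered 0 of 4261 with no mouse block and 0 of 3367 with clusters 1 to 4. When a mouse was left out they numbered 1 to 4, of 4463 to 4701 genes tested. Depth class calls numbered 1584 with no filter, 505 with a limit of 1500 UMIs, 340 with clusters 1 to 4, 87 with deep members under 0.5% Malat1, and 727 to 955 when a mouse was left out. With clusters 1 to 4, 337 genes were higher and 422 lower than in conventional dendritic cells, and 623 higher and 990 lower than in all other cells. With all members these were 281 and 113 of 5343 genes, and 695 and 520 of 5910 genes. The number of genes measured with clusters 1 to 4 is not given. Leaving out a mouse gave differences in members per mouse of -1.066 to -0.2203 percentage points, in members under 2000 UMIs of -15.7 to -3.976, and in low Malat1 of -12.55 to -7.309. The type 1 gate and a Leiden resolution of 1.0 each gave a smallest p of 0.1.

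With the replicate number as a block, 1 of 3788 genes passed between genotypes at 2000 or more UMIs and 4 of 1166 under 2000. Among the 4 were H2-Eb1 (adjusted p = 0.0005463), H2-Aa (adjusted p = 0.0004224) and Cd74 (adjusted p = 7.056e-05), all by edgeR. At 2000 or more UMIs, 310 genes were at an unadjusted p under 0.05 by edgeR with this block and 225 without it. Under 2000 UMIs they numbered 68 and 70. The labels do not say whether the replicate numbers pair the mice.

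Among the genes followed one by one through the alternatives, depth class log2 folds that turned round with clusters 1 to 4 were H2-D1 (-0.31), Cd63 (-0.0053), Serpinb9 (-0.088), Cxcl16 (-0.27), Relb (-0.25), Marcksl1 (-0.0052) and Lyz2 (0.55). With deep members under 0.5% Malat1 they were Junb (0.69), Nfkbia (0.43), Fabp5 (-0.13), Tap1 (0.28), Socs2 (0.55) and H2-K1 (0.055). H2-K1 turned to 0.00047 with the limit of 1500 UMIs. When a mouse was left out, H2-K1 ranged over -0.088 to 0.014, Socs2 over -0.26 to 0.17 and Tap1 over -0.24 to 0.025. None of H2-K1, Socs2, Tap1, Relb and H2-D1 passed the main test. Depth limits the genes tested under 2000 UMIs to 1166, against 3788 at 2000 or more.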

Other observations

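Aire, a transcriptional regulator known for thymic expression of tissue genes, gave 76 UMIs in 37 of 999 members (3.70%), in all 6 mice. It gave 0 UMIs in 227 conventional dendritic cells, which allows a share of up to 1.32% of cells with a UMI, and 57 UMIs in 23 of 36022 T cells (0.0638%). The floor covers counting error only. Il12b gave 51 UMIs in 15 members and 0 in conventional dendritic cells.

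UMIs of 21 pancreas genes were few: 14 UMIs in 8 members (0.801%), against 134 of 36022 T cells (0.372%) and 12 of 12561 B cells (0.0955%). These 21 genes do not include Ctrc, which was among the leading genes of cluster 4, so they do not cover all pancreas transcripts. Ins1 gave 2 UMIs and Ins2 1 UMI in members. Of 2598 Hba-a1 UMIs in members, 2371 were in 1 cell, and of 353 Cxcl1 UMIs, 254 were in 1 cell.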
